A study of Mus musculus with 6 samples.

Results

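The miR-29 family of microRNAs (miRNAs) was followed by quantitative PCR in 3 BTBR mice (genotype label BTBR T+ Itpr3tf/J) and 3 wild-type C57BL/6J controls, all males of 5 months, with no drug given to either group. The labels enter C57BL/6J as the strain background of the BTBR mice as well, although their source and genotype fields name BTBR, an inbred strain with autism-like social behaviour. Each mouse gave 1 sample of whole prefrontal cortex, so a replicate is an animal. Members were chosen by name: every assay of the TaqMan OpenArray rodent panel for miR-29a, miR-29b or miR-29c, whatever the species prefix, arm, copy number or pool. That gave 8 of the 750 miRNA assays, 3 for guide strands and 5 for star strands, which the panel marks with #. Each value is a cycle threshold, that is, the number of PCR cycles needed for the signal to cross a set level, so a higher threshold stands for less RNA, and 40 was read as undetermined. Each assay was run once per sample.

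MiRNAs are cut from hairpin transcripts, and of the paired arms the guide is usually loaded into the silencing complex while the star, or passenger, is mostly degraded. The guides of miR-29 come from the 3p arm and repress collagens and other matrix genes, the DNA methyltransferases DNMT3A and DNMT3B, and, in neurons, pro-apoptotic BH3-only genes. Their level is known to rise as the brain matures. Because guide and star leave the same hairpin, their ratio in a sample reflects processing and decay of the strands rather than transcription alone. In whole tissue, fewer cells of a type and less RNA per cell cannot be told apart.

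The mouse sequences below are RefSeq's for GRCm38.p6, with the seed (bases 2 to 8) in capitals, and are shown because the guides share a seed while the stars do not. RefSeq names matched 7 of the 8 assays, and mmu-miR-29b#, whose name has no copy number, was not matched. The oligonucleotides inside the assays were not used here, and several assays carry human or rat names.
miR-29a guide (mmu-miR-29a-3p): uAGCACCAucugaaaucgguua
miR-29b guide (mmu-miR-29b-3p): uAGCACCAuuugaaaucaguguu
miR-29c guide (mmu-miR-29c-3p): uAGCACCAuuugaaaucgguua
miR-29a# (mmu-miR-29a-5p): aCUGAUUUcuuuugguguucag
miR-29b-1# (mmu-miR-29b-1-5p): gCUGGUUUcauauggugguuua
miR-29b-2# (mmu-miR-29b-2-5p): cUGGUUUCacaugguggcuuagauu
miR-29c# (mmu-miR-29c-5p): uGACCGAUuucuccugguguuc

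All 3 guides carry the same seed, and no entry outside the family among 1679 mature mouse names in the table shares it. Counted from 1 at the 5′ end, the guide of miR-29a differs from that of miR-29c at 1 base, C10U, and the guide of miR-29c differs from that of miR-29b at 3 of 22 bases, G18A, U21G and A22U. The 4 stars shown have 4 different seeds, each counted from the star's own 5′ end. The stars were not aligned with each other, so unlike seeds do not measure how alike their whole sequences are. The miR-29b stars share a run of bases that starts at a different position in each. How far an assay for 1 guide reads another was not tested.

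The hairpins of miR-29b-2 and miR-29c lie 426 bases apart on the plus strand of chromosome 1, at chr1:195037040-195037120 and chr1:195037547-195037634 of GRCm38.p6, and both overlap the lncRNA gene A330023F24Rik. Those of miR-29a and miR-29b-1 lie 275 bases apart on the minus strand, at chr6:31062660-31062747 and chr6:31063023-31063093, and overlap no other gene of the RefSeq table. The guide of miR-29b has the same sequence from both loci, so its assay cannot assign a reading to either. The chromosome 1 hairpins are printed with their mature arms in capitals, star first and guide second, because their stars were read in every mouse.
Mir29b-2: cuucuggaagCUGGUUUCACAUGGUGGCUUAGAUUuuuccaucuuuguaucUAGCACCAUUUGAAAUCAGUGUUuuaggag
Mir29c: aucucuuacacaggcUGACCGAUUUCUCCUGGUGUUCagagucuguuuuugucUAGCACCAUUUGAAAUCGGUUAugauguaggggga

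Before the family's values, the readings that bear on an undetermined value are these. Between 289 and 404 of the 750 assays were detected per sample. The panel is split into pools of primers. Pool A, which holds the 3 guides, had 175 to 180 of 377 assays detected in C57BL/6J and 212 to 244 in BTBR, without overlap (two-sided exact permutation p = 0.1, the smallest that 3 against 3 allows). Pool B, which holds the 5 stars, had 114 to 129 detected in C57BL/6J and 114 to 161 in BTBR, with overlap (exact permutation p = 0.5). Of 80 spots of the endogenous small RNA controls, 17, 19 and 21 stood at 40 in the C57BL/6J samples against 2, 0 and 1 in BTBR (exact permutation p = 0.1). U6, whose detected spots had a median threshold of 13.6 to 14.5 cycles in every sample, stood at 40 in 3, 3 and 5 of its 16 spots in C57BL/6J and in 0 in each BTBR sample. An undetermined guide in C57BL/6J was therefore given no upper bound on its level, and the part of these readings in the strain difference in detection was not tested. Of the marker miRNAs, 5 of 7 neuronal and 4 of 6 oligodendrocyte assays were detected in all samples, against 1 of 7 blood, 1 of 11 epithelial, 1 of 2 endothelial, 0 of 1 liver and 4 of 7 muscle assays. Among defining markers, hsa-miR-9 was read only in BTBR replicates 1 and 2 although its star was read in every sample. The neuronal list also held the opposite case: hsa-miR-124# read 22.74, 21.70 and 13.68 cycles in C57BL/6J replicates 1 to 3 and was undetermined in every BTBR sample.

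Of the 8 assays 3 were read in all 6 samples, 1 in 4, 3 in 2 and 1 in 0, and a sample had 3 or 4 of them in C57BL/6J and 4, 6 or 7 in BTBR. The guide of miR-29a was the earliest reading of the family. Its assay hsa-miR-29a (002112) had raw thresholds of 14.36, 14.62 and 14.26 cycles in C57BL/6J replicates 1 to 3 and 14.86, 14.47 and 14.53 cycles in BTBR replicates 1 to 3. The strains overlapped (exact permutation p = 0.3), and no mouse stood apart. On the authors' normalized values the thresholds were 14.52 ± 0.135 cycles for C57BL/6J and 14.65 ± 0.335 cycles for BTBR (SD, n = 3 each). That is a log2 change, BTBR minus C57BL/6J, of -0.14 with a standard error of 0.30 and a 95% interval of -0.87 to 0.60 (limma adjusted p = 0.737). The interval leaves room for a fall of 0.87 or a rise of 0.60 on the log2 scale.

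**Figure D1:**
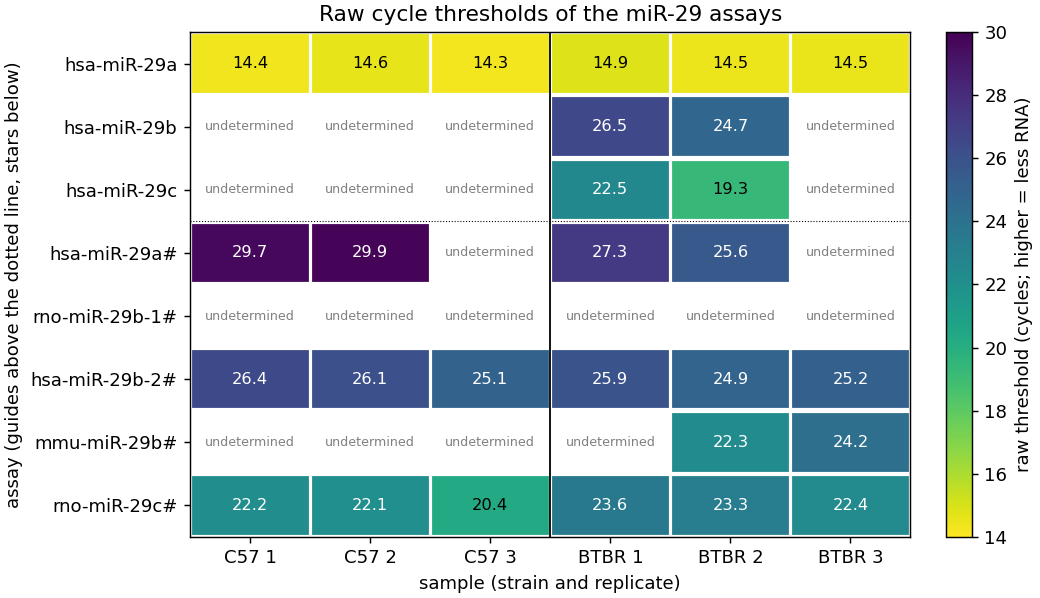
Raw cycle thresholds of the 8 miR-29 assays (rows) in the 6 mice (columns), with the threshold in cycles as colour and number. Only hsa-miR-29a, hsa-miR-29b-2# and rno-miR-29c# were read in all 6 samples, and hsa-miR-29b and hsa-miR-29c were read only in BTBR replicates 1 and 2.

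The guides of miR-29b and miR-29c were read in a minority of the mice. The assay hsa-miR-29c (000587) read 22.53 cycles in BTBR replicate 1 and 19.26 cycles in BTBR replicate 2 (raw thresholds) and was undetermined in BTBR replicate 3 and in all C57BL/6J samples. The assay hsa-miR-29b (000413) was read in the same mice, at 26.50 and 24.73 cycles, and in no other. In both assays BTBR replicate 2 read earlier than BTBR replicate 1. That pattern of detection was shared by 28 of the 377 assays of pool A (7.43%). Both guides were detected in 2 of 6 samples, under the minimum of 3 that the authors' normalized table keeps as rebuilt from both tables, so they have no normalized value and no strain test. The epithelial marker hsa-miR-200a, with 17.45 and 14.41 cycles, was read in the same mice only. In detection, some other epithelial assays went the other way. The assay hsa-miR-141 was read in every C57BL/6J sample, at 24.36 to 27.91 cycles, but in BTBR only in replicate 2, at 21.63. The assay hsa-miR-200b# was read only in C57BL/6J replicates 2 and 3, at 31.52 and 33.26 cycles, and in BTBR replicate 2, at 24.84. By level, every epithelial assay with a reading was earliest in BTBR replicate 2, the sample with the most assays detected on the panel. Per sample, 4 to 8 of the 11 epithelial assays were detected in BTBR against 2 to 4 in C57BL/6J. The part of the epithelial assays in the detection of the guides was not tested.

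The stars of the chromosome 1 hairpins were read where the guides of miR-29b and miR-29c were not. The assay hsa-miR-29b-2# (002166) and the assay rno-miR-29c# (001818) were detected in all 6 mice, so in each there were 4 samples with a star reading and an undetermined guide. On the whole panel, 129 combinations of a star and a guide assay share a name, and in 7 of them (5.43%) the star was detected and the guide undetermined in all 3 C57BL/6J samples. In 4 combinations the star was read in 6 samples and the guide in BTBR replicates 1 and 2 only, a pattern counted after the values were seen: miR-29b-2, miR-29c, miR-7 and the neural marker miR-9. For miR-9 the star hsa-miR-9# read 13.5 to 14.1 cycles in every sample, and the guide hsa-miR-9 read 16.76 and 13.90 cycles in those BTBR mice and 40 in the others.

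Of the stars read in all mice, miR-29c# had the larger strain difference. Its raw thresholds were 22.25, 22.10 and 20.37 cycles in C57BL/6J replicates 1 to 3 and 23.56, 23.28 and 22.43 cycles in BTBR replicates 1 to 3. Every BTBR mouse read later than every C57BL/6J mouse, though the nearest pair, C57BL/6J replicate 1 and BTBR replicate 3, were 22.25 and 22.43 cycles. The difference was 1.52 cycles (exact permutation p = 0.1). Of 237 assays read in all samples, 18.1% had raw thresholds later in BTBR without overlap. On the authors' normalized values the thresholds were 20.90 ± 0.995 cycles for C57BL/6J and 24.002 ± 1.15 cycles for BTBR (SD, n = 3 each), a fall of miR-29c# by 3.10 on the log2 scale, or 8.58-fold less in BTBR (standard error 0.76, 95% interval -4.98 to -1.22, limma adjusted p = 0.0301 over 231 assays).

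The star of miR-29b-2, from the neighbouring hairpin, fell on the normalized values only. Its normalized thresholds were 25.42, 25.30 and 24.26 cycles in C57BL/6J and 26.79, 27.09 and 25.91 cycles in BTBR, without overlap, where 57.7% of the 189 assays with 6 normalized values were later in BTBR without overlap. The log2 change was -1.60, or 3.04-fold less (standard error 0.49, 95% interval -2.80 to -0.40, limma adjusted p = 0.0485). Its raw thresholds were 26.44, 26.08 and 25.06 cycles in C57BL/6J and 25.93, 24.93 and 25.17 cycles in BTBR, so the strains overlapped and the BTBR mean of 25.34 was earlier than the C57BL/6J mean of 25.86. The raw log2 change was 0.52 (standard error 0.49, limma adjusted p = 0.551).

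**Figure D2:**
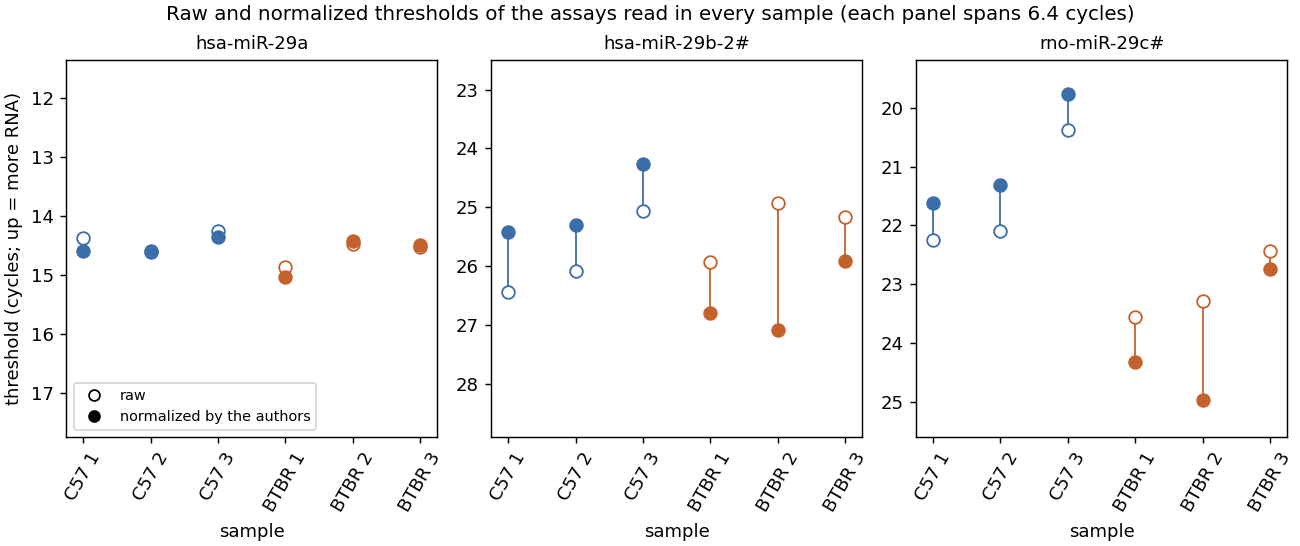
Raw (open) and normalized (filled) cycle thresholds of hsa-miR-29a, hsa-miR-29b-2# and rno-miR-29c# by sample, C57BL/6J in blue and BTBR in orange, with the axis turned so that up is more RNA; each panel spans the same number of cycles. The miR-29a symbols move by at most 0.23 cycles, while normalization moves both stars up in every C57BL/6J mouse and down in every BTBR mouse, most in BTBR replicate 2.

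With the strain test, 2 of the 3 tested members fell, 0 rose and miR-29a did not pass. Over the panel, 35.5% of the 231 tested assays fell, and among its 30 tested star assays 40% did (12 assays), so the count in the family stood against a high background, and both of its tested stars were among those 12. The median log2 change of all tested assays was -1.13. Relative to it, miR-29c# lay at -1.97, miR-29b-2# at -0.47 and miR-29a at 0.99. With raw thresholds in place of the normalized ones for those values, and each sample's global mean subtracted (its average over the assays read in every mouse), 0 of the 3 members passed in limma (miR-29c# had an unadjusted p under 0.05), where 0.433% of the panel was called. On that scale miR-29c# was at -1.70 (standard error 0.54, limma adjusted p = 0.108), miR-29b-2# at 0.34 (0.34) and miR-29a at -0.39 (0.26). The call of miR-29c# was also lost without C57BL/6J replicate 2 or 3 or BTBR replicate 1 or 2 (limma adjusted p = 0.0685 to 0.0761). The panel lost most of its calls there too: 2 of 212 assays fell without C57BL/6J replicate 2 and 0 of 221 without C57BL/6J replicate 3. Without BTBR replicate 1, 0 of 212 fell, and without BTBR replicate 2, 8 of 213 did, against 82 of 231 with all samples. Of the 6 fits that left out a sample, miR-29b-2# passed only in that without BTBR replicate 3 (limma adjusted p = 0.0258, and 0.0603 to 0.128 in the others). Over the panel 88 of 212 assays fell without BTBR replicate 3, and 64 of 220 without C57BL/6J replicate 1.

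**Figure D3:**
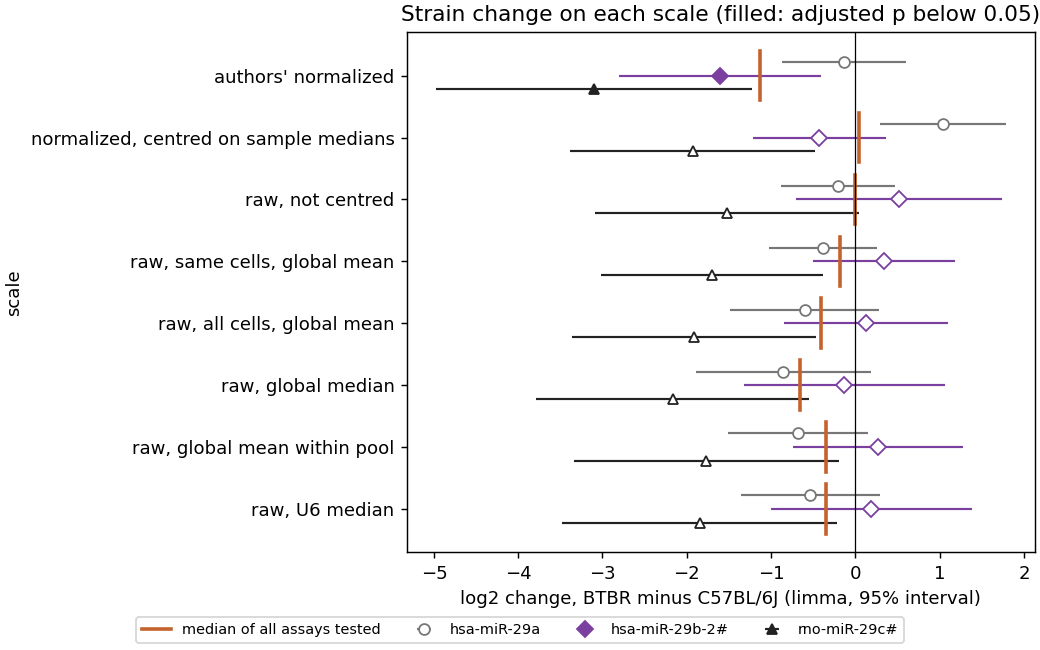
Log2 change, BTBR minus C57BL/6J, of 3 miR-29 assays on 8 scales, with 95% intervals from limma; filled symbols passed an adjusted p of 0.05 and the orange bar is the median of all assays tested. The point for rno-miR-29c# lies below 0 on every scale, whereas hsa-miR-29b-2# is at -1.60 on the authors' values and at 0.52 on uncentred raw thresholds.

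What normalization added to a threshold depended on its raw level. For miR-29a the normalized value was within 0.23 cycles of the raw value in every sample. For miR-29b-2# the normalized minus the raw threshold was -1.02, -0.781 and -0.796 cycles in C57BL/6J replicates 1 to 3 and 0.856, 2.16 and 0.742 cycles in BTBR replicates 1 to 3. For miR-29c# it was -0.628, -0.785 and -0.607 cycles in C57BL/6J and 0.752, 1.68 and 0.302 cycles in BTBR. The members moved with the other assays of their level: over assays with a raw threshold of 24 to 28 cycles the median shift was -1.001, -0.87 and -0.87 cycles in C57BL/6J and 0.76, 2.13 and 0.74 cycles in BTBR. Over assays of 12 to 16 cycles, the level of miR-29a, it was between -0.18 and 0.22 cycles in all samples. A comparison of a late star with the early miR-29a guide in the normalized table thus holds a strain shift that the raw table does not have.

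**Figure D4:**
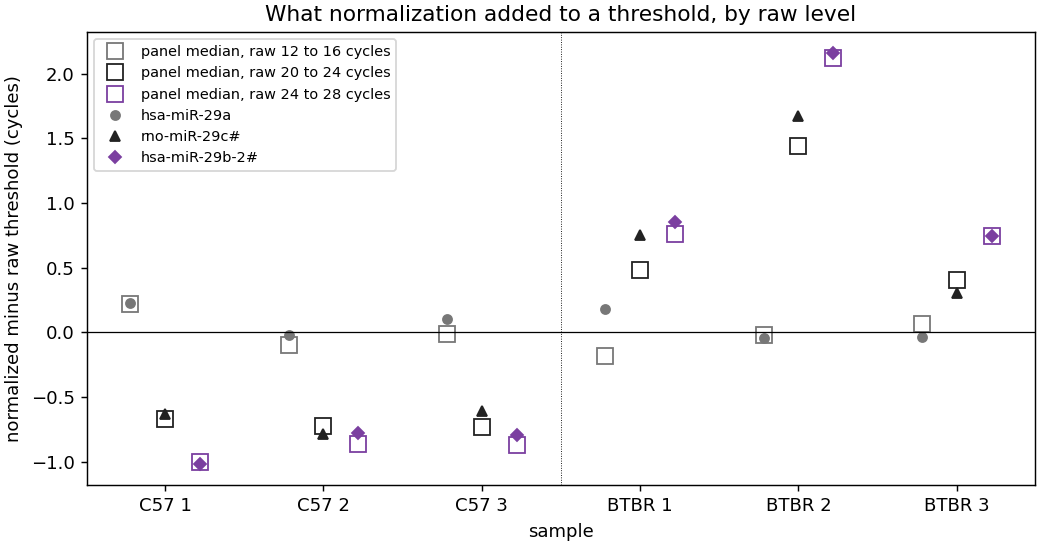
Normalized minus raw threshold (cycles) by sample for 3 miR-29 assays (filled symbols) and the panel median of assays in the same range of raw thresholds (open squares). Shifts of miR-29a stay near 0, and those of both stars are below 0 in C57BL/6J and above 0 in BTBR, up to 2.16 cycles.

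Star was compared with guide inside each sample, where a shift common to all raw thresholds of a mouse cancels. The guides are in pool A and the stars in pool B, so a shift of a single pool does not cancel. A difference of thresholds between assays also contains their unequal efficiency, so only its change between strains was read. The single pair of the family with both strands read in at least 2 mice per strain was miR-29a. Its star, hsa-miR-29a# (002447), read 29.68 and 29.87 cycles in C57BL/6J replicates 1 and 2 and 27.31 and 25.60 cycles in BTBR replicates 1 and 2, and was undetermined in replicate 3 of both strains. The raw log2 ratio of star to guide was -15.32 and -15.25 in the C57BL/6J mice and -12.45 and -11.13 in the BTBR mice. The star was thus 11.3-fold higher relative to its guide in BTBR (log2 difference 3.49, standard error 0.97, 95% interval 1.06 to 5.93), the smallest p of the 25 star and guide pairs tested on the panel, but it did not pass (limma adjusted p = 0.189). Of those pairs 0% were called (4 had an unadjusted p under 0.05), and their median difference was 0.12. Without BTBR replicate 3, in which this pair has no value, it passed with the same difference (limma adjusted p = 0.0269), but there 3 pairs of the panel were called higher and 2 lower of 20 tested, and 8 had an unadjusted p under 0.05. With all 6 samples and the global mean of each pool subtracted, the difference of the miR-29a pair was 3.61 (limma adjusted p = 0.191).

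In the normalized table the same pair kept a value in only 1 BTBR mouse. The reading of miR-29a# in BTBR replicate 1 stands there at 40: the authors' steps as rebuilt give it 30.36 cycles, above the highest value the table keeps, 29.19. The remaining ratios were -13.90 and -14.11 in C57BL/6J replicates 1 and 2 and -13.66 in BTBR replicate 2, so there were too few values for a test. With 40 averaged in as a number, the authors' deposited table gives a BTBR to C57BL/6J ratio of 0.0809 for miR-29a# (adjusted p-value 0.627), the opposite direction to the raw readings. With the rebuilt late reading kept and 40 as missing, the log2 change of miR-29a# was also negative, -0.62 (standard error 0.94, limma adjusted p = 0.631). On raw thresholds it was positive, from 2.27 with the global median to 3.32 uncentred (limma adjusted p = 0.104 to 0.190 over the raw settings). For rno-miR-29c#, hsa-miR-29b-2# and hsa-miR-29a the authors' deposited table gives ratios of 0.116, 0.329 and 0.910, with adjusted p-values of 0.0960, 0.112 and 0.645.

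For miR-29b and miR-29c, star and guide could be set side by side only in BTBR. The miR-29b guide has the same sequence from both loci, so its ratio to miR-29b-2# is not that of a single hairpin. The raw log2 ratio of miR-29c# to miR-29c was -1.03 in BTBR replicate 1 and -4.02 in BTBR replicate 2, and that of miR-29b-2# to miR-29b was 0.57 and -0.20. The gap between these mice in miR-29c lay mostly in the guide, since the star read 23.56 and 23.28 cycles. The assay mmu-miR-29b# (002497) was read in BTBR replicates 2 and 3, at 22.33 and 24.22 cycles, and rno-miR-29b-1# (002082) in 0 samples. No strain comparison could be made for either.

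The stars of the chromosome 1 hairpins could be compared with each other in all mice, a comparison chosen after their values were seen. Both assays are in pool B. The raw log2 ratio of miR-29c# to miR-29b-2# was 4.19, 3.98 and 4.69 in C57BL/6J replicates 1 to 3 and 2.37, 1.65 and 2.74 in BTBR replicates 1 to 3. Every BTBR mouse lay below every C57BL/6J mouse, with means of 4.29 ± 0.363 and 2.25 ± 0.556 (SD, n = 3 each). The share of other assay ratios on the panel without overlap of the strains was not counted, here or for the ratios to miR-29a below. The difference was -2.04, with a two-sided exact permutation p of 0.1, the smallest the design allows (0.15 after Benjamini-Hochberg adjustment over the 3 within-sample comparisons made). In the normalized table the ratios were 3.80, 3.99 and 4.50 against 2.48, 2.13 and 3.18, again without overlap and with a difference of -1.50 (exact permutation p = 0.1).

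Against the miR-29a guide, which lies on another chromosome and in the other pool, the stars went different ways in the raw table. The raw log2 ratio of miR-29c# to miR-29a was -7.88, -7.49 and -6.11 in C57BL/6J and -8.70, -8.81 and -7.91 in BTBR, a difference of -1.31 without overlap (exact permutation p = 0.1, adjusted 0.15), and -0.79 without C57BL/6J replicate 3. That of miR-29b-2# to miR-29a was -12.08, -11.47 and -10.80 in C57BL/6J and -11.08, -10.46 and -10.64 in BTBR, which overlapped, with a difference of 0.72 (exact permutation p = 0.2, adjusted 0.2), and 0.41 without C57BL/6J replicate 1. In the normalized table both differences were negative, -2.97 and -1.47. The sign for miR-29b-2# therefore depended on the table.

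**Figure D5:**
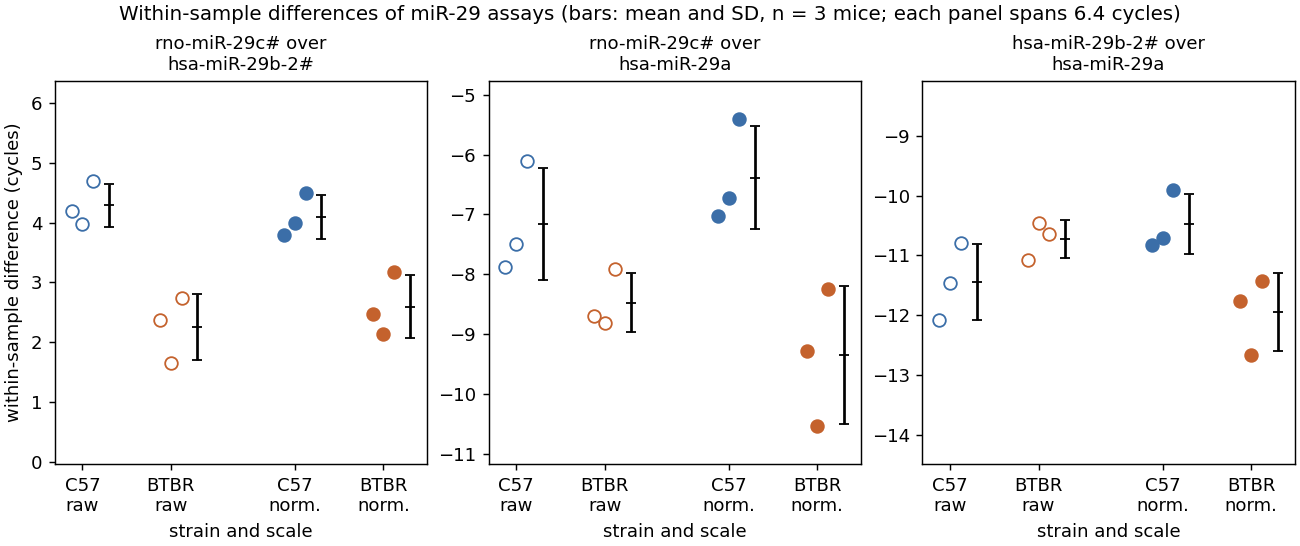
Within-sample log2 ratios of miR-29 assays in each mouse from raw (open) and normalized (filled) thresholds, C57BL/6J in blue and BTBR in orange, with mean and SD of 3 mice. The ratio of rno-miR-29c# to hsa-miR-29b-2# is lower in every BTBR mouse on both scales, and that of hsa-miR-29b-2# to hsa-miR-29a changes sign of difference between the scales.

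The members did not follow each other closely over the 6 mice. On raw thresholds centred on the global mean, Pearson's r was 0.73 between miR-29c# and miR-29a, 0.32 between miR-29c# and miR-29b-2#, and -0.03 between miR-29a and miR-29b-2#, over 6 samples that include both strains. Of 234 other assays read in all samples, those most like miR-29c# were hsa-miR-323-3p, hsa-miR-101 and mmu-miR-467c (r = 0.98 each). The assays closest to miR-29a were hsa-miR-1 (0.99), mmu-miR-598 (0.98) and hsa-miR-26a (0.98), and those closest to miR-29b-2# were hsa-miR-140-3p (0.92), rno-miR-352 (0.87) and MMU-MIR-1944 (0.84). All points share the sample's scaling, and these values describe 6 samples only.

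The related list held all assays, of either arm, for miRNA families with a member reported to act on DNA methyltransferases, the enzymes that miR-29 represses. It therefore includes passenger arms, which have other seeds than their guides. Of its 15 assays 5 could be tested on the authors' normalized values: 3 fell, 0 rose and 2 did not pass, on a panel where 35.5% fell. Those that fell were rno-miR-148b-5p (log2 change -2.89, limma adjusted p = 0.0265), hsa-miR-101 (-2.01, 0.0369) and hsa-miR-152 (-1.58, 0.0497), and hsa-miR-185 (-0.87) and hsa-miR-126 (0.58) did not pass. Of those that fell, rno-miR-148b-5p is a passenger arm, and its guide hsa-miR-148b was not tested. The median of the list was -1.58 beside -1.13 for all tested assays, and on the global mean scale -0.67 beside -0.18, where 0 of the 5 passed in limma and 1 had an unadjusted p under 0.05. The number that fell was 0 without C57BL/6J replicate 2 or 3 or BTBR replicate 1 or 2. In those fits only 0 to 8 of the 212 to 221 assays tested on the panel fell. Of the 10 assays not tested, 7 were detected in more BTBR than C57BL/6J samples, as were the guides of miR-29b and miR-29c, and 1 in no sample. The assays hsa-miR-143 (000466) and hsa-miR-148b (000471) were detected in all samples but had too few normalized values for the fit.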

How the data were processed

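RNA was purified on columns, and 100 ng per sample was reverse transcribed, pre-amplified and run on the panel, per the labels' protocols. The deposited tables give raw cycle thresholds and, per the file headers, quantile-normalized ones. The authors' deposited fold table holds ratios, log2 differences with the sign turned, a test score and p-values, per the file headers; no source used here names its test. The authors' normalization was rebuilt from both tables (largest difference 3.33e-09 cycles): raw values under 10 are set to 40, the 340 assays read in at least 3 samples are ranked with 40 taking part, normalized values above 29.19 are set to 40, and the 306 assays with at least 3 values left are kept. The upper limit was read from the normalized table.

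Here thresholds were multiplied by -1 (1 cycle as 2-fold), and 40, or a raw value under 10, was missing. All assays with at least 2 values per strain were fitted in limma 3.58.1 (R 4.3.3; lmFit, eBayes) with strain as the single term, Benjamini-Hochberg adjusted over all of them at 0.05. Star and guide pairs, matched by name, were fitted likewise on within-sample raw differences. Single comparisons used exact permutation tests (SciPy 1.17.1). Both fits were also run on simulated data with known changes and independent noise for each assay. Those data held no shift shared by the assays of a sample, so they cannot show how the fits behave under such a shift. Thresholds come without counts, so precision rests on 3 mice per strain with a single PCR of each assay. Every family assay is named; the 3 most correlated assays per member and the passing members of the related list are named too. Members, lists and tests were chosen with earlier results of these data known. No source used here says which samples shared an array, and an effect of the array was not tested. Alternatives were other centrings, filters and a trend, a replicate block, and leaving out each sample.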

Additional observations from a re-analysis of the deposited data

How the results depend on the processing

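On the authors' values 2 miR-29 assays passed. That count was 1 with 40 kept as a value, with a trend in eBayes and with late readings kept (the last chosen after seeing the data). It was 0 with sample medians and with raw thresholds on the global mean (the same cells or all cells), the global median, the global mean within pools, the U6 median, or not centred. It ranged from 0 to 2 over the samples left out. The change of miR-29b-2# turned positive on raw thresholds, 0.52 uncentred, 0.34 and 0.12 on the global mean (the same cells and all cells), 0.27 within pools and 0.19 with U6, and was -0.13 with the global median. That of miR-29a was 1.04 with sample medians, -0.21 to -0.85 on raw thresholds (-0.60 on the global mean and -0.68 within pools, both without overlap of the strains) and -0.25 to 0.0565 over the samples left out. The change of miR-29c# was negative in all 18 alternatives run. The strain difference in the ratio of miR-29b-2# to miR-29a, chosen after seeing the data, went from 0.72 to -1.47 in the normalized table. The number of miR-29 star and guide pairs that passed was 0, and 0 to 1 over the samples left out; the pair could not be fitted where both strands had to be read in all samples, in the normalized table, or without C57BL/6J replicate 1 or 2 or BTBR replicate 1 or 2. Between deviations of same-numbered samples r was 0.08, 0.42 and -0.0013 for replicates 1 to 3, and whether a number marks a shared run was not tested. With a replicate block the standard error was 0.35 for miR-29c#, 0.30 for miR-29b-2# and 0.32 for miR-29a. Without the block it was 0.76, 0.49 and 0.30. With the replicate block 2 miR-29 assays passed, the strain difference in the ratio of miR-29a# to miR-29a was 3.49 (limma adjusted p = 0.489), and over the panel 1 assay rose and 31 fell in place of 3 and 82. By limma, 0 assays of the panel passed without BTBR replicate 1 (89 with an unadjusted p under 0.05) or C57BL/6J replicate 3 (99), 8 fell without BTBR replicate 2, 1 rose and 2 fell without C57BL/6J replicate 2, 0 rose and 64 fell without C57BL/6J replicate 1, and 13 rose and 88 fell without BTBR replicate 3. With 40 kept as a value 26 rose and 70 fell. With a trend in eBayes 3 rose and 85 fell, and with late readings kept 2 rose and 82 fell. With sample medians 1 rose and 1 fell, and on raw thresholds of all cells 0 passed under each of the 5 settings, 4 centrings and none, where 52 to 78 had an unadjusted p under 0.05.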
